A study of Rattus norvegicus with 8 samples.

Results

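Comparison was made between 2 spinal cord samples of adult female Sprague-Dawley rats out of 8 samples in the series. One was labelled a dorsal hemisection, a cut through the back part of the cord, and the other a C-level control; the labels do not spell out the letter C. They were chosen by the column headings in the authors' deposited table, which name the cord samples and the day, and they are the only cord samples in that table. Each was total RNA from a pool of 3 animals, taken at day 5 and hybridised to 1 one-colour Agilent expression array. The sample names count these 5 days from an injection and the shared protocol counts them from an injury, and neither says what the injection held. The protocol describes a cut of the sciatic nerve in full and gives neither the level of the cord lesion nor whether the control tissue came from the same rats. The series also holds 3 sciatic nerve samples of day 1 after transection (proximal, distal and contralateral, each a pool of 3 animals) and 3 cultures of primary Schwann cells (unstimulated, or given S100A8/A9 for 1 h or 24 h), which are used below to show where a gene is expressed. The question behind the comparison is how the cord at a dorsal lesion differs in gene expression from cord labelled as control. With 1 array a side there is no replicate check and no p-value, and lesion, cord level, animals and the make-up of the dissected piece cannot be told apart.

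After a cut, damaged axons and myelin leave debris that resident microglia and macrophages from the blood take up, and neutrophils enter early. Dividing glia, fibroblasts and vascular cells then build a scar of collagens, tenascins and proteoglycans around the lesion, with reactive astrocytes at its border. The dorsal part of the cord carries sensory axons from the dorsal roots and holds the sensory interneurons of the dorsal horn, while motor neurons lie in the ventral horn. Schwann cells belong to the roots and nerves outside the cord and can enter a lesion. In bulk tissue, fewer cells of a type and less RNA per cell cannot be told apart.

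The sources pair these samples with arrays in conflicting ways, and every direction below rests on the table's headings. Over all probes the dorsal hemisection column ranked as the scan recorded under the contralateral nerve (Spearman rho 1.0 across probes, next best 0.969), and the C-level column as the scan recorded under the Schwann cells at 24 h (1.0, next best 0.969). The neuronal gene Snap25 stood at -8.27 and -8.29 on the scans recorded as cord and at 2.23 and 4.35 on the matched ones (log2 over the array's 75th percentile). The astrocyte gene Gfap stood at -1.40 and -1.46 on the former and at 4.02 and 3.73 on the latter. These markers bear on the tissue and say nothing of which of the 2 cord columns is the lesion. In the value table the cord label went with its markers: the 14 neuron genes had a median log2 level of 12.23 in the hemisection column and 13.48 in the C-level column, against 4.55 to 5.33 in the nerve columns and 5.34 to 5.97 in the Schwann cell columns. The 19 astrocyte genes had median levels of 13.50 and 13.43, against at most 10.51 in the nerve and 7.35 in the Schwann cells. Myelin genes could not separate cord from nerve as sharply, since Mbp stood at 17.87 and 18.00 in the cord and 17.67 to 18.00 in the nerve, but Mog, which is made in central myelin, stood at 11.61 and 12.66 in the cord and at 2.20 to 3.18 in the nerve.

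All levels below are the authors' deposited log2 values and all differences are hemisection minus C-level. The error after ± is the spot error, the technical spread between replicate spots of a probe at that signal, and says nothing of animals. Where a probe was not well above background on 1 of the 2 arrays the fold is a lower bound, written as at least N-fold. At a 2-fold threshold, 1244 of the 12196 genes measured (10.2%) lay higher in the hemisection and 1127 (9.24%) lay lower; 180 and 113 of these were bounds. With probes well above background on both arrays the counts were 1064 (9.17%) and 1014 (8.74%) of 11599 genes. Normexp correction with quantile normalization of the matched scans, below called normexp correction, gave smaller counts, 729 and 544, and the scans as recorded under the cord samples gave 88 and 76. The differences were larger on the higher side, where 334 genes passed 4-fold and 106 passed 8-fold, against 136 and 23 on the lower side. The median of all genes was -0.04, with quartiles at -0.47 and 0.41. Probes were well above background for 76.0% of the array on the hemisection scan and 73.6% on the C-level scan. Of 389 genes past 2-fold that had several probes, the probes of 21 disagreed in sign.

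**Figure D1:**
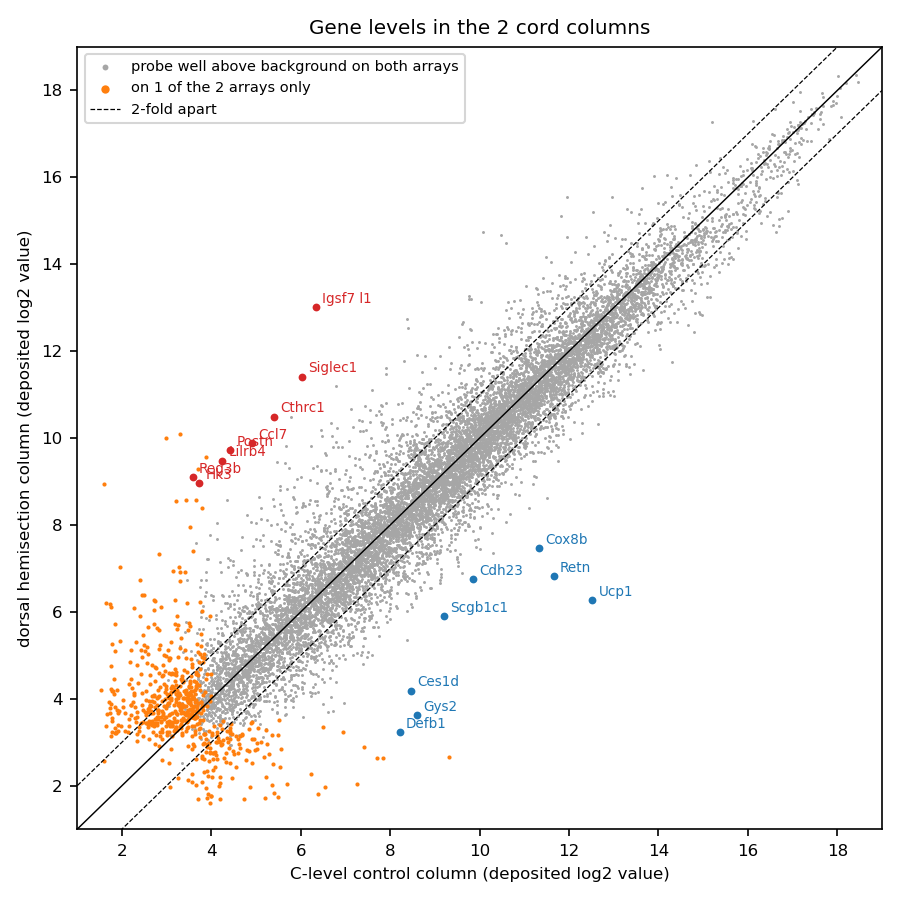
Each point is a gene, by its deposited log2 value in the C-level control column (horizontal) and in the dorsal hemisection column (vertical); dashed lines mark a 2-fold difference, and orange points were above background on 1 array only. Among genes measured on both arrays, the 8 of largest difference on each side are named: Igsf7 l1 lies 6.68 above the diagonal and Ucp1 lies 75.9-fold below it.

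Genes of myeloid cells and of connective tissue led the higher side. Igsf7 l1 (NM_001168285) stood at 13.02 in the hemisection and 6.34 in the C-level column, a difference of 6.68 ± 0.17 (103-fold). Siglec1, a sialic acid receptor of macrophages, stood at 11.41 and 6.02 (5.39 ± 0.08). Reg3b, a secreted lectin induced in injured tissue, stood at 9.10 and 3.58 (5.53 ± 0.48). All 3 genes thus lay far beyond the 2-fold lines and far beyond their spot errors. Others among the first 15 with a role in myeloid cells were the hexokinase Hk3 (5.24), the inhibitory receptor Lilrb4 (5.24), the glucan receptor Clec7a (4.23), the chemokine Ccl7 (4.99), the protease inhibitor Slpi (4.42) and the apolipoprotein Apoc1 (4.36). Connective tissue was represented by Postn (5.30), Cthrc1 (5.09), Col1a1 (4.18) and Srpx2 (4.14), and Dapl1 (4.69) and the interferon-induced Ifitm1 (4.67) completed the 15.

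Genes of fat led the lower side. Ucp1 (NM_012682), the uncoupling protein of brown fat, stood at 6.28 in the hemisection and 12.52 in the C-level column (-6.25 ± 0.06). Retn, the adipocyte hormone resistin, stood at 6.81 and 11.65 (-4.84 ± 0.09). Gys2, a glycogen synthase, stood at 3.63 and 8.60 (-4.97 ± 0.35). The same 15 held the respiratory subunit Cox8b (-3.86), the carboxylesterase Ces1d (-4.29), the defensin Defb1 (-4.98) and the cartilage protein Chad (-3.02). Neural genes were few among them: the serotonin receptor Htr2c (-2.89), the scaffold Lin7b (-2.73), Lamp5, a membrane protein of neurons (-2.95), and the cadherin Cdh23 (-3.10). The remaining ones were Scgb1c1 (-3.29), Tapbpl (-3.07), Pom121l2 (-3.0) and Plscr5 (-2.92).

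Levels of genes that mark tissues beside the cord also differed between the 2 pieces. Of 19 fat markers, 14 were at least 2-fold lower in the hemisection and 2 higher, and the list had median levels of 6.81 in the hemisection, 9.31 in the C-level column and 9.91 to 11.60 in the nerve columns. The hormone Adipoq stood at 2.66 and 9.31, at least 100.1-fold lower in the hemisection, where its probe was not well above background. Pck1 was at least 26.9-fold lower, Aqp7 at least 16.3-fold and Cidec at least 7.89-fold. Ucp1 differed from these in that the nerve columns, at 3.36 to 4.52, lay below both cord columns, whereas Adipoq stood at 13.10 to 14.48 in the nerve. Of the lipid genes that other tissues also express, Pparg (-2.37), Lpl (-2.15) and Fabp4 (-1.78) were lower too, and Cebpa (1.74) and the adipsin gene Cfd (1.68) were the 2 higher ones. Of 22 skeletal muscle genes, 12 were lower and 2 higher (median -1.09), with Actn3 at 8.07 and 10.59 (-2.53) and the calcium pump Atp2a1 at 9.13 and 11.21 (-2.09). The muscle genes Myod1, a bound of at least 3.38-fold, and Tnnt1 (1.20) were the higher ones. Of 11 bone and cartilage genes 5 were lower, among them the osteocalcin gene Bglap (-1.45), and Cnmd was higher (2.85). Fat and muscle genes were thus measured at higher levels in the control piece; their part in the other differences was not tested. Red cell genes did not separate the pieces: none of 11 was 2-fold apart (median 0.20).

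**Figure D2:**
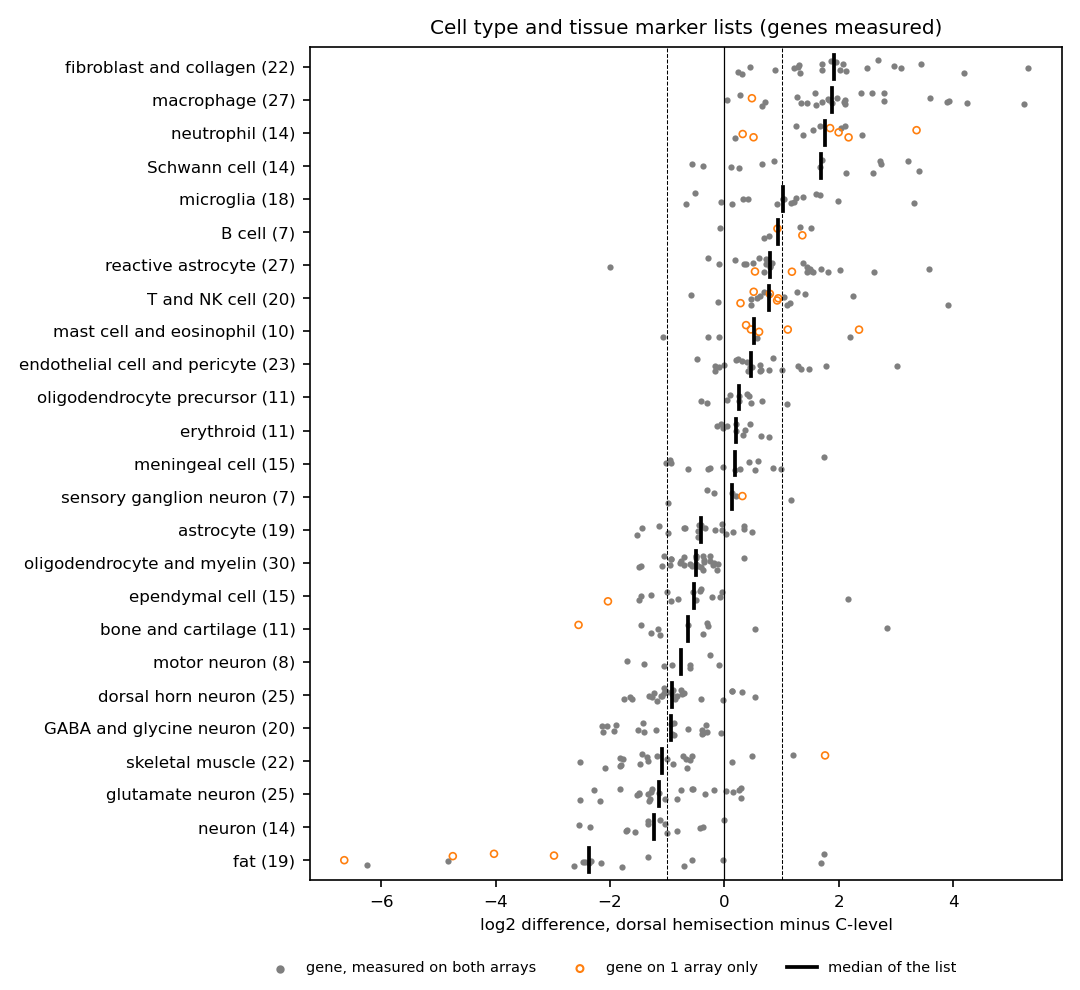
Each point is a gene of a cell type or tissue list, placed by its log2 difference, hemisection minus C-level; bars are list medians, dashed lines mark 2-fold, and orange rings are genes above background on 1 array only. Fibroblast, macrophage, neutrophil and Schwann cell lists have the highest medians (1.91, 1.88, 1.76 and 1.69), and fat and neuron lists the lowest (-2.37 and -1.23).

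Macrophage markers were higher in the hemisection nearly throughout the list. Of 27 measured, 22 were at least 2-fold higher, none lower, and the median was 1.88. The lysosomal protein Cd68 stood at 14.48 and 10.60 (3.88 ± 0.06), and in the nerve columns at 12.11 to 13.82. Gpnmb, a glycoprotein of lipid-laden macrophages, stood at 15.55 and 11.95 (3.60 ± 0.06). The scavenger receptor Msr1 stood at 8.04 and 4.11 (3.93 ± 0.37). For Cd68, Gpnmb and Siglec1 the hemisection column was above all 3 nerve columns, and for Msr1 it was between them (7.02 to 10.80). The lectin receptors Clec4a1 (2.78) and Clec4a3 (2.78), the bone matrix protein Spp1, or osteopontin (2.59), the Fc receptors Fcgr2b (2.38) and Fcgr1a (1.88), Adgre1, which encodes F4/80 (2.11), and lysozyme Lyz2 (2.08) were also higher. The 5 members under 2-fold were Arg1 (0.70), Cd163 (0.66), Cd36 (0.05), the cathepsin Ctss (0.27) and Ccr2, whose bound was under 2-fold. Arg1 and Cd163 are used as markers of alternative activation, but so is Mrc1, which was at least 2-fold higher (1.81).

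Microglia, the resident phagocytes, had 11 of 18 markers higher and none lower (median 1.03). Fcrl2 stood at 15.12 and 11.81 (3.30 ± 0.06), and Trem2, the lipid receptor of phagocytosing microglia, at 15.28 and 13.30 (1.98 ± 0.07). Aif1, which encodes Iba1, stood at 15.16 and 13.57 (1.59 ± 0.05). Within the list, genes used as markers of resting microglia did not move together. The fractalkine receptor Cx3cr1 (0.13), Tmem119 (0.33) and the transcription factor Sall1 (-0.06) were close to 0. The purine receptors P2ry12 (1.16) and P2ry13 (1.66), Olfml3 (1.24) and Gpr34 (1.02) were at least 2-fold higher. So was the growth factor receptor Csf1r (1.37). Microglia and macrophages share many of these genes, among them Aif1, Csf1r and Trem2.

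Neutrophil markers were higher for 11 of 14 genes, 6 of the 14 resting on bounds (median 1.76, and 0.76 with normexp correction). The alarmin subunits S100a8 and S100a9, whose complex was given to the Schwann cells of the series, stood at 10.95 and 8.91 (2.04 ± 0.07) and at 11.13 and 9.46 (1.68 ± 0.07). The transected nerve columns reached 13.61 and 13.63 at day 1, so both cord columns lay below them. Np4, a defensin gene (2.40), the decoy receptor Il1r2 (2.11), Camp (1.55) and the growth factor receptor Csf3r (1.38) were also higher, and the collagenase Mmp8 was at least 10.2-fold higher. The receptors named for the alarmin pair were both within 2-fold: Tlr4 lay on the same side as the pair (0.76), and Ager, which encodes RAGE, differed by -0.13. Of the 14 S100 genes measured, another pair was at least 2-fold higher, S100a11 (2.15) and S100a6 (1.28), and none was lower.

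Of 20 T and NK cell genes 7 were higher in the hemisection and none lower (median 0.78, and 0.27 with normexp correction). The co-receptor gene Cd8a stood at 7.57 and 3.66 (3.91 ± 0.48), and its partner Cd8b at 7.53 and 6.26 (1.27). The receptor chain Cd3g (2.25) and the signalling chain Cd247 (1.41) were higher as well. Of 7 B cell genes 3 were higher, with the adaptor Blnk at 1.52 (median 0.93, and 0.30 with normexp correction). Among 10 mast cell and eosinophil genes 3 were higher, with the eosinophil granule gene Prg2 at 2.20, and 1 lower, Cma1 (-1.07). Of these 10 genes 5 rested on bounds. The median was 0.51, but -0.10 without the bounds and 0.09 with normexp correction.

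Signals that draw leukocytes were partly higher. Of 29 chemokine genes 13 were higher and 3 lower (median 0.64, and 0.16 with normexp correction). The higher share was 44.8%, against 10.2% of all genes measured. The lower share, 10.3%, was near that of all genes measured (9.24%). Ccl7 stood at 9.89 and 4.90 (4.99 ± 0.36) and Ccl2, which recruits monocytes, at 12.54 and 8.41 (4.13 ± 0.04). The B cell attractant Cxcl13 stood at 9.81 and 6.23 (3.58 ± 0.17). Ccl12 (3.54), the platelet factor Pf4 (2.78), Ccl6 (2.76), Ccl3 (1.92) and the interferon-induced Cxcl11 (1.78) and Cxcl10 (1.44) followed. The 3 lower ones were Ccl21, at least 8.87-fold lower, its companion ligand of the same receptor Ccl19 (-1.04), and the skin chemokine Ccl27 (-1.15). Of 13 receptors 4 were higher, Ccr6 (2.33), Cxcr4 (1.36), Cxcr3 (at least 5.43-fold) and Cxcr1 (at least 3.99-fold), and none was lower.

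Cytokines and their receptors had 20 of 32 genes higher and none lower (median 1.19). The receptor of interleukin 33, Il1rl1, was at least 15.7-fold higher, and its ligand Il33 stood at 11.84 and 10.46 (1.38 ± 0.06). Il1b, the interleukin 1 beta gene, differed by 1.73 ± 0.07 and Tnf by 1.13 ± 0.15. Genes that restrain interleukin 1 were higher alongside it, namely Il1r2 (2.11) and the receptor antagonist Il1rn (1.76). Receptors of the tumour necrosis factor family were among the larger differences, Tnfrsf1b at 2.57, Tnfrsf12a at 2.09 and Tnfrsf1a at 1.76. Of 22 genes of Toll-like receptors, RAGE and NF-kB, 10 were higher and none lower (median 0.80): Tlr2 (2.34), the lipopolysaccharide co-receptors Ly96 (2.20) and Cd14 (2.10), the adaptor Myd88 (1.60) and the adhesion molecule Icam1 (1.53) among them.

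Effector arms of innate immunity were uneven. Of 24 complement genes 14 were higher and none lower (median 1.12). C1qa stood at 16.29 and 14.85 (1.44 ± 0.05), C1qb at 17.29 and 16.10 (1.18 ± 0.05) and C1qc at 13.69 and 11.42 (2.26 ± 0.06), so all 3 chains of the initiating complex were at least 2-fold higher. The anaphylatoxin receptors C5ar1 (2.52) and C3ar1 (2.31) and properdin, Cfp (2.88), were further above. Interferon-induced genes had 9 of 34 higher, a median of 0.68 and 1 far member, Ifitm1, at 14.75 and 10.08. Of 13 genes of class II presentation 5 were higher: the antigen processing genes Ifi30 (2.66) and Lgmn (2.15), the peptide loading genes RT1-DMa (1.69) and RT1-DMb (1.63), and the co-stimulator Cd86 (1.68). Within 2-fold were the protease Ctss (0.27), RT1-DOb (0.13), the presenting chains RT1-Bb (0.21), RT1-Da (-0.29) and RT1-Db1 (-0.45) and the invariant chain Cd74 (-0.46), all picked after their values were seen.

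Genes for taking up and digesting debris were higher for 15 of 38 members, with 1 lower (median 0.91). Abca1, which exports cholesterol from loaded cells, stood at 10.34 and 6.67 (3.67 ± 0.14), and the lipid droplet protein Plin2 at 13.74 and 11.92 (1.82 ± 0.06). The cathepsins Ctsc (2.43), Ctsz (1.94) and Ctsk (1.83), progranulin Grn (1.98), the uptake receptors Mertk (1.28) and Axl (1.19) and the acid lipase Lipa (1.04) were higher. The lower member was Lpl (-2.15), which is also on the fat list. Cholesterol synthesis lay the other way: of 26 genes none was higher, 5 were at least 2-fold lower and 23 were below 0 (median -0.65). Insig1 stood at 9.68 and 11.31 (-1.64 ± 0.06), Msmo1 at 14.37 and 15.77 (-1.40 ± 0.05) and Hmgcs1 at 14.28 and 15.37 (-1.09 ± 0.05).

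**Figure D3:**
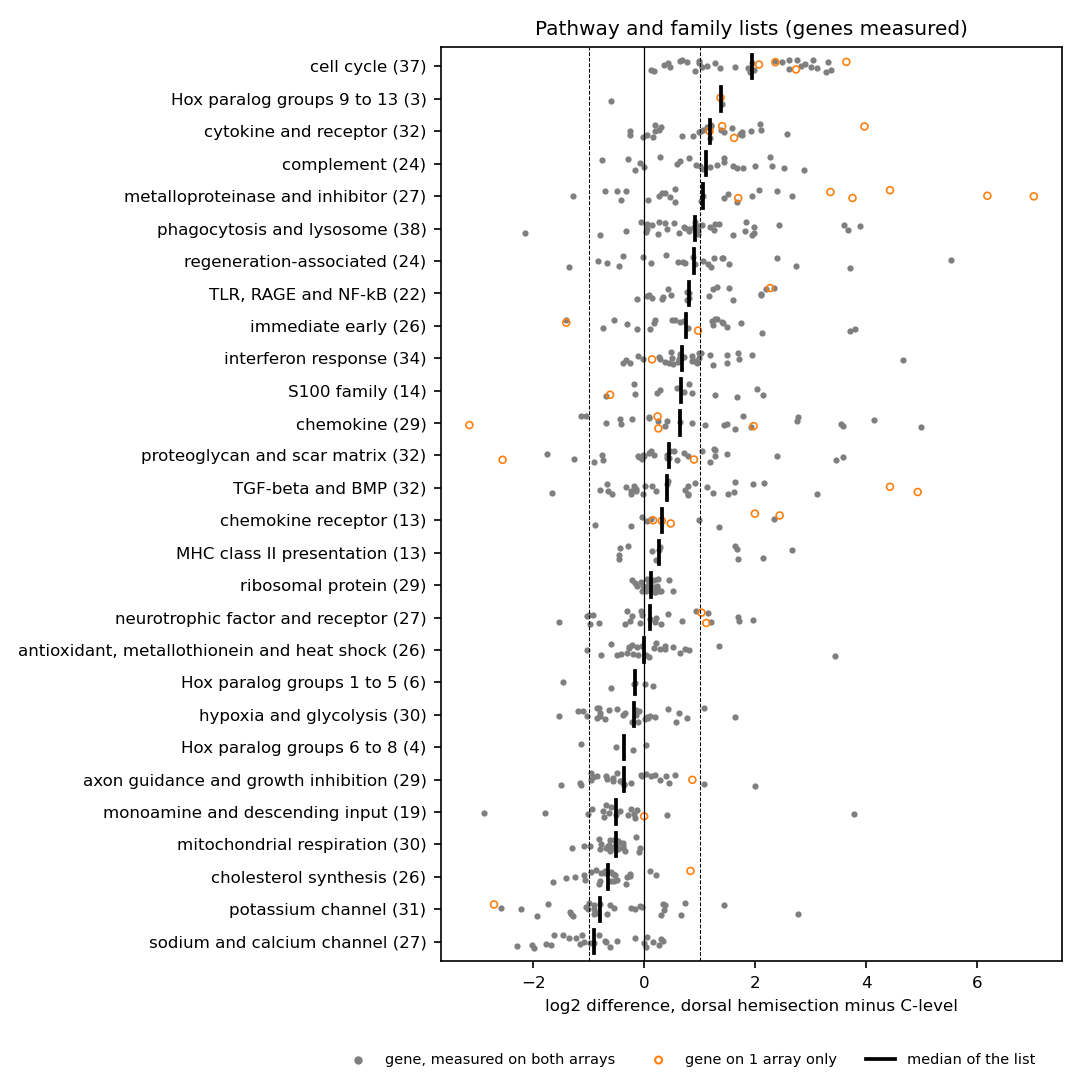
Each point is a gene of a pathway or family list, placed by its log2 difference, hemisection minus C-level; bars are list medians, dashed lines mark 2-fold, and orange rings are genes above background on 1 array only. The cell cycle list lies wholly above 0 (median 1.95), ribosomal protein genes cluster near 0 (median 0.13), and channel genes lie lowest (medians -0.79 and -0.91).

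Proteases that cut matrix held the largest bound among the lists. Of 27 metalloproteinases, plasminogen system genes and inhibitors, 15 were higher and 1 lower (median 1.06, but 0.56 without the bounds and 0.63 with normexp correction). Mmp7, or matrilysin, stood at 10.01 in the hemisection and was not well above background in the C-level column, at least 129.9-fold higher. Mmp12, the macrophage elastase, stood at 8.94 and was at least 72.7-fold higher. The plasminogen activator Plau was at least 13.5-fold higher, and its receptor Plaur differed by 2.39, so enzyme and receptor lay on the same side. Among those measured on both arrays the gelatinase Mmp2 stood at 12.49 and 9.82 (2.67 ± 0.09), the membrane-bound Mmp14 at 13.37 and 11.43 (1.94 ± 0.03) and the inhibitor Timp1 at 15.79 and 14.28 (1.51 ± 0.02). Mmp13, a collagenase also of cartilage, was the lower one (-1.29).

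The promoters of Mmp7 and Mmp12, with that of the macrophage gene Gpnmb, are shown because each holds the letters TGAGTCA. AP-1 dimers of Fos and Jun proteins, whose genes differed too (below), recognise this core. The search pattern was TGANTCA, with N any base, so the counts below also take in other letters at N. The 150 bases before each start are from RefSeq on GRCr8, 5′ to 3′ on the gene's strand, with matches in capitals.
Mmp12: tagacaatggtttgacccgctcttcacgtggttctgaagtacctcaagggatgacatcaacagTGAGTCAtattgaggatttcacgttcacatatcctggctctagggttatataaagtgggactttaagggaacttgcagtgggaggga
Mmp7: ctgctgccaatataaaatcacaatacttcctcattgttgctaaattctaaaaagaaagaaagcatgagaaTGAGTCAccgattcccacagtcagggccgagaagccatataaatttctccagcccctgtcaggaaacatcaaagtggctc
Gpnmb: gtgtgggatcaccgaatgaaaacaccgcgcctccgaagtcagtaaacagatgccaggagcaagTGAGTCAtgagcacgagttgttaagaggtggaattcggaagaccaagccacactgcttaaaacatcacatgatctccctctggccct
They lie at chr8:12866502-12866651 (plus strand), chr8:13132893-13133042 (plus strand) and chr4:79340978-79341127 (plus strand). The match began 87 bases before the start in Mmp12, 80 in Mmp7 and 87 in Gpnmb, and all 3 read the same. TGANTCA equals its own reverse complement pattern. In the 250 bases before the start it was found in 4 of the 18 protease list genes that had a promoter in the table (22.2%). In the macrophage list, which holds Gpnmb, it was found in 3 of 21 (14.3%), and over all 33469 promoters in 2122 (6.34%). A list gene counts if any of its promoters matched, whereas the last share counts each promoter. A match describes these letters and is neither a bound site nor a cause.

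Genes of connective tissue, which builds the core of a scar, were higher throughout their list. Of 22 fibroblast and collagen genes 18 were at least 2-fold higher, none lower, and all 22 were above 0 (median 1.91). Col1a1, the main chain of fibrillar collagen, stood at 14.67 and 10.48 (4.18 ± 0.06), and its partner Col1a2 at 15.76 and 13.64 (2.12 ± 0.05). Periostin, Postn, stood at 9.72 and 4.41 (5.30 ± 0.36) and lay within the range of the nerve columns. Fap (3.43), a protease of activated fibroblasts, Col8a1 (3.08), the keratan sulphate proteoglycan Lum (2.97), Col3a1 (2.68), the cross-linking enzyme Loxl2 (2.49), the basement membrane chain Col4a1 (2.07) and fibrillin Fbn1 (2.03) were higher too. Nerve columns carried these genes at high levels as well, with a list median of 12.64 to 14.34 against 11.79 in the hemisection and 10.21 in the C-level column. Meningeal markers, which mark the fibroblasts of the cord's coverings, had 1 of 15 higher, Islr (1.74), and 1 lower, Igf2 (-1.03). That is 6.67% each way, against 10.2% higher and 9.24% lower over all genes measured.

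Of 32 proteoglycan and scar matrix genes 9 were higher and 3 lower (median 0.44). Tenascin C, Tnc, stood at 9.32 and 5.74 (3.58 ± 0.18) and syndecan 1, Sdc1, at 11.77 and 8.32 (3.45 ± 0.10). The chondroitin sulphate proteoglycans, which limit axon growth in scar, were split: neurocan, Ncan, stood at 9.14 and 7.87 (1.27 ± 0.11), while aggrecan, Acan, of the nets around neurons and of cartilage, was at least 5.86-fold lower. The link protein Hapln1 was lower with it (-1.74). The synthase Chsy1 (1.27) and the matricellular Ccn1 (2.39) and Thbs2 (1.50) were higher. Of 32 genes of the TGF-beta and BMP families 10 were higher and 1 lower (median 0.42): the ligands Tgfb1 (2.15), Tgfb3 (1.25) and Bmp7 (1.64), the receptor Tgfbr2 (1.62), the binding protein Ltbp2 (3.11) and the target Tgfbi (1.96) were among the former, and the BMP antagonist Grem1 (-1.66) was the latter. The stress-induced family member Gdf15 was at least 30.5-fold higher.

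Vascular genes were partly higher. Of 23 endothelial and pericyte genes 6 were at least 2-fold higher and none lower (median 0.47): the peptidase Anpep (3.02), the endothelial receptors Tie1 (1.78) and Eng (1.29), and the mural genes Acta2 (1.48), Des (1.34) and Pdgfrb (1.01). Anpep is also expressed by myeloid cells. Vegfa, the endothelial growth factor, stood at 11.08 and 12.62 (-1.54 ± 0.06).

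The general and the reactive astrocyte lists had medians of opposite sign. Of 19 general astrocyte markers none was higher and 3 were lower (median -0.41), whereas of 27 genes induced in reactive astrocytes 12 were higher and 1 lower (median 0.80). Gfap, the intermediate filament that defines the type, stood at 14.27 and 14.12 (0.15 ± 0.02), and the water channel Aqp4 at 12.30 and 11.81 (0.49 ± 0.06). The lower ones included the connexin Gjb6 (-1.52) and angiotensinogen Agt (-1.44). Among reactive genes, Serpina3n stood at 10.78 and 8.17 (2.61 ± 0.10), nestin, Nes, at 12.99 and 11.18 (1.81 ± 0.06), and the pentraxin Ptx3 at 7.54 and 5.52 (2.02 ± 0.18). Several of the higher reactive genes, such as Timp1 (1.51), Cxcl10, Tnc and Emp1 (1.45), are also made by other cells of a wound. Ggta1 was the lower member (-1.99). Vim (0.72), Cd44 (0.80), Lcn2 (0.50) and C3 (-0.29) were among the reactive genes within 2-fold.

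Oligodendrocyte and myelin genes were mildly lower. Of 30 measured, 29 were below 0 (median -0.50). At least 2-fold lower were 4 (13.3%, against 9.24% of all genes measured). The inhibitor of axon growth Omg stood at 9.68 and 11.17 (-1.49 ± 0.06), the tetraspanin Tspan2 at 12.88 and 14.34 (-1.46 ± 0.05) and Mog at 11.61 and 12.66 (-1.05 ± 0.06). Ermn (-1.08) was the other lower one, and the most abundant myelin gene, Mbp, differed by -0.14. Of the genes of oligodendrocyte precursors, 9 of 11 were above 0 (median 0.26), with Sox6 at 1.09 and the rest within 2-fold. Ependymal genes, of the cells lining the central canal, had 4 of 15 lower and 14 below 0 (median -0.54), among them the cilia genes Ak7 (-1.47) and Tmem212 (-1.50); the higher one, Pltp (2.15), is a lipid transfer protein of many cell types.

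Peripheral myelin genes lay opposite to central ones. Of 14 Schwann cell genes 8 were at least 2-fold higher in the hemisection and none lower (median 1.69). Periaxin, Prx, which stabilises peripheral myelin, stood at 10.18 and 7.45 (2.73 ± 0.10), against 11.89 to 13.95 in the nerve, and the fatty acid binding protein Pmp2 at 13.21 and 9.80 (3.41 ± 0.06). Both were higher in each nerve column than in either cord column. Dhh, a Schwann cell signal to the nerve sheath (3.21), the junction gene Cldn19 (2.60), the myelin regulator Egr2 (2.12), the neurotrophin receptor Ngfr (1.71) and Pmp22 (1.67) also belonged to the 8. Over all probes the hemisection column ranked closer to the nerve columns (rho 0.897 to 0.903) than the C-level column did (0.836 to 0.869), and the part of root or nerve in the piece was not tested. Markers of sensory ganglion neurons, whose bodies lie on the dorsal roots, did not move together: 1 of 7 was higher, Mrgprx3 (1.17), with a median of 0.13. That is 14.3%, against 10.2% of all genes measured.

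**Figure D4:**
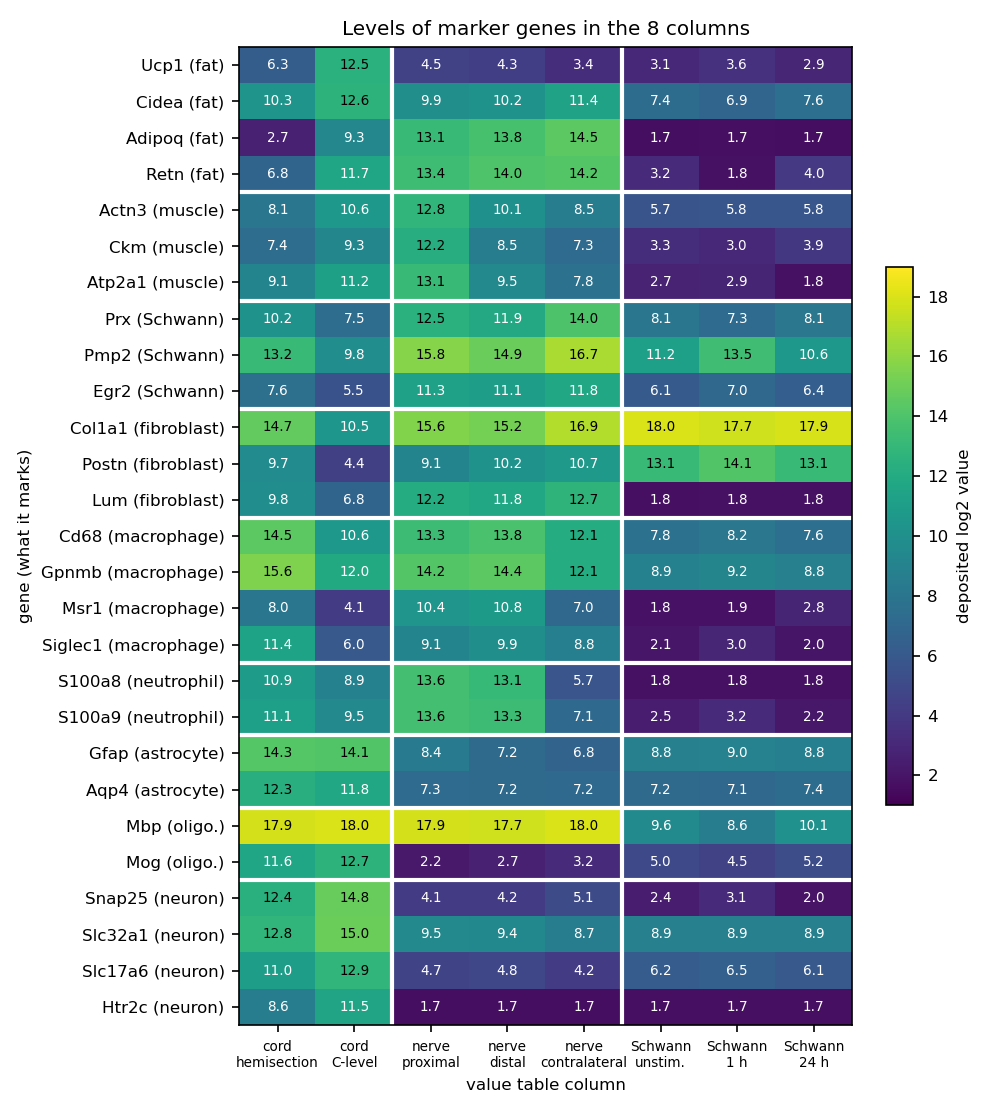
Each cell gives the deposited log2 value of a marker gene (rows) in a value table column (2 cord, 3 nerve and 3 Schwann cell columns), coloured from 1 to 19. Snap25 stands at 12.45 and 14.80 in the cord and at most 5.12 in the nerve, while Pmp2 is lower in the C-level column (9.80) than in every other one.

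The medians of the neuron lists were below 0, except that of the sensory ganglion. Of 14 general neuron genes 10 were at least 2-fold lower and none higher (median -1.23). Snap25, of the vesicle fusion machinery, stood at 12.45 and 14.80 (-2.36 ± 0.02), the calcium sensor Vsnl1 at 11.76 and 14.30 (-2.54 ± 0.02) and the neurofilament Nefm at 14.96 and 16.29 (-1.34 ± 0.02). The neurofilaments split, since Nefl was lower (-1.33) and Nefh, the heavy chain, did not differ (13.19 and 13.19). Of 8 motor neuron genes 3 were lower (median -0.76), all of the cholinergic synapse. They were the choline transporter Slc5a7 (-1.71), the esterase Ache (-1.40) and the synthetic enzyme Chat (-1.05). The vesicular acetylcholine transporter Slc18a3, of the same synapse, was within 2-fold (-0.61).

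Of 25 dorsal horn genes 12 were lower and none higher (median -0.91). Neurotensin, Nts, stood at 6.89 and 8.65 (-1.76 ± 0.10), enkephalin, Penk, at 10.74 and 12.00 (-1.26 ± 0.03) and somatostatin, Sst, at 13.05 and 14.16 (-1.11 ± 0.05). The neurokinin receptors Tacr3 (-1.65) and Tacr1 (-1.0), the neuropeptide Y receptor Npy1r (-1.19), the calcium buffers Calb2 (-1.32) and Calb1 (-1.06) and the developmental factors Lbx1 (-1.62) and Drgx (-1.23) belonged to the 12. Other peptides of the same neurons were not among them: dynorphin, Pdyn, differed by -0.03 and galanin, Gal, by 0.13.

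Most genes of both fast transmitter systems were below 0. Of 20 GABA and glycine genes all were below 0 and 9 at least 2-fold lower (median -0.93). The vesicular transporter Slc32a1 stood at 12.83 and 14.97 (-2.13 ± 0.07), and the synthetic enzymes Gad1 and Gad2 differed by -1.93 and -1.90. Receptor subunits were lower unequally, from Gabra5 (-2.12) to Gabrg1 (-0.06), a subunit that glia also express. Among the glycine genes, the receptor subunit Glrb was at least 2-fold lower (-1.40). The glycine transporter Slc6a5 (-0.33) and the subunits Glra1 (-0.37), Glra2 (-0.39) and Glra3 (-0.88) were within 2-fold. Of 25 glutamate genes 14 were lower and none higher (median -1.15, and -0.66 with normexp correction). The vesicular transporter Slc17a6 stood at 11.05 and 12.87 (-1.82 ± 0.03). All 4 AMPA receptor subunits were lower, Gria4 at -2.18, Gria3 at -1.53, Gria2 at -1.50 and Gria1 at -1.31, and the metabotropic receptors Grm8 (-2.52) and Grm3 (-2.28) were furthest down.

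Voltage-gated channels lay with the neurons. Of 27 sodium, calcium and pacemaker channel genes 12 were lower and none higher (median -0.91), led by the sodium channel Scn1a at 9.48 and 11.76 (-2.28 ± 0.06). Of 31 potassium channel genes 10 were lower and 2 higher (median -0.79). Kcnc1, of fast-spiking neurons, stood at 7.44 and 10.02 (-2.57 ± 0.08), and Kcnj6 was at least 6.52-fold lower. The higher ones were Kcnn4, a calcium-activated channel of immune cells, at 8.34 and 5.56 (2.78 ± 0.18), and Kcnma1 (1.44), whose probes disagree: the mean of its probes gave -0.2. Monoamine genes, which belong to the input that descends from the brainstem and its receptors, had 3 of 19 lower and 1 higher (median -0.50). That is 15.8% lower and 5.26% higher, against 9.24% and 10.2% of all genes measured. The serotonin receptors went opposite ways: Htr2c stood at 8.62 and 11.50 (-2.89 ± 0.07), and Htr2b at 9.43 and 5.65 (3.78 ± 0.17). Adra2c (-1.79) and Htr3a (-1.02) were the others lower.

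Genes of dividing cells were higher without exception in sign. Of 37 cell cycle genes 26 were at least 2-fold higher, none lower, and all 37 above 0 (median 1.95, and 1.09 with normexp correction, where the complement list stood higher at 1.17). The mitotic kinase Cdk1 stood at 11.91 and 8.59 (3.32 ± 0.03), its cyclin partners Ccnb1 at 8.90 and 5.54 (3.36 ± 0.18) and Ccnb2 at 8.38 and 5.12 (3.27 ± 0.36). Next in size among those measured on both arrays were the cyclin Ccna2 (3.11), the kinesin Kif20a (3.04), the spindle protein Prc1 (3.00) and the kinase Plk1 (2.90). Of the genes of mitosis past 2-fold, the kinases Ttk (1.64) and Aurka (1.12) differed less. Genes of DNA replication ranged from Rrm2 (2.49), Tyms (1.95) and the helicase subunit Mcm3 (1.91) to Rrm1 (0.64) and Mcm4 (0.47). The replication clamp Pcna (0.36) and the cyclin Ccne1 (0.12) were among those within 2-fold. Bulk RNA does not show which cell types expressed them.

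The promoters of these 3 mitotic genes are shown because they share CCAAT letters at short intervals, the core bound by NF-Y, and because 2 of them hold TTTGAA, the core of the cell cycle genes homology region. They are the 150 bases before the start, from RefSeq on GRCr8, 5′ to 3′ on the gene's strand, with both motifs on either strand in capitals.
Cdk1: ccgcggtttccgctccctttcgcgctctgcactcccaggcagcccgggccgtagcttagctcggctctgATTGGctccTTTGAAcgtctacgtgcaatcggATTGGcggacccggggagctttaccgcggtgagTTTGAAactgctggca
Ccnb2: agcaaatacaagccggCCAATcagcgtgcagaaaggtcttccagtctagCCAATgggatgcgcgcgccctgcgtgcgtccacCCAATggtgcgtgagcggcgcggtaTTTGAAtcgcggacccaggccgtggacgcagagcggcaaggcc
Ccnb1: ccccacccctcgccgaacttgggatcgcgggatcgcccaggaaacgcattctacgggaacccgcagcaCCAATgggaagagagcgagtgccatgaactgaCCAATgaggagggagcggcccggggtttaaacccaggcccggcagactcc
They lie at chr20:19265143-19265292 (plus strand), chr8:79981659-79981808 (minus strand) and chr2:33655226-33655375 (minus strand). CCAAT began 81 and 49 bases before the start in Cdk1, there on the opposite strand as ATTGG, at 134, 101 and 68 bases in Ccnb2, and at 82 and 50 bases in Ccnb1. TTTGAA began at 72 and 16 bases in Cdk1 and at 43 bases in Ccnb2, and no match overlapped another. In the 250 bases before the start, CCAAT on either strand was found in 19 of the 26 cell cycle genes with a promoter in the table (73.1%) and in 34.0% of all 33469 promoters, and TTTGAA in 7 of 26 (26.9%) and in 16.2%. A list gene counts if any of its promoters matched, whereas the shares of all promoters count each promoter. These shares describe the sequences and were not tested.

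**Figure D5:**
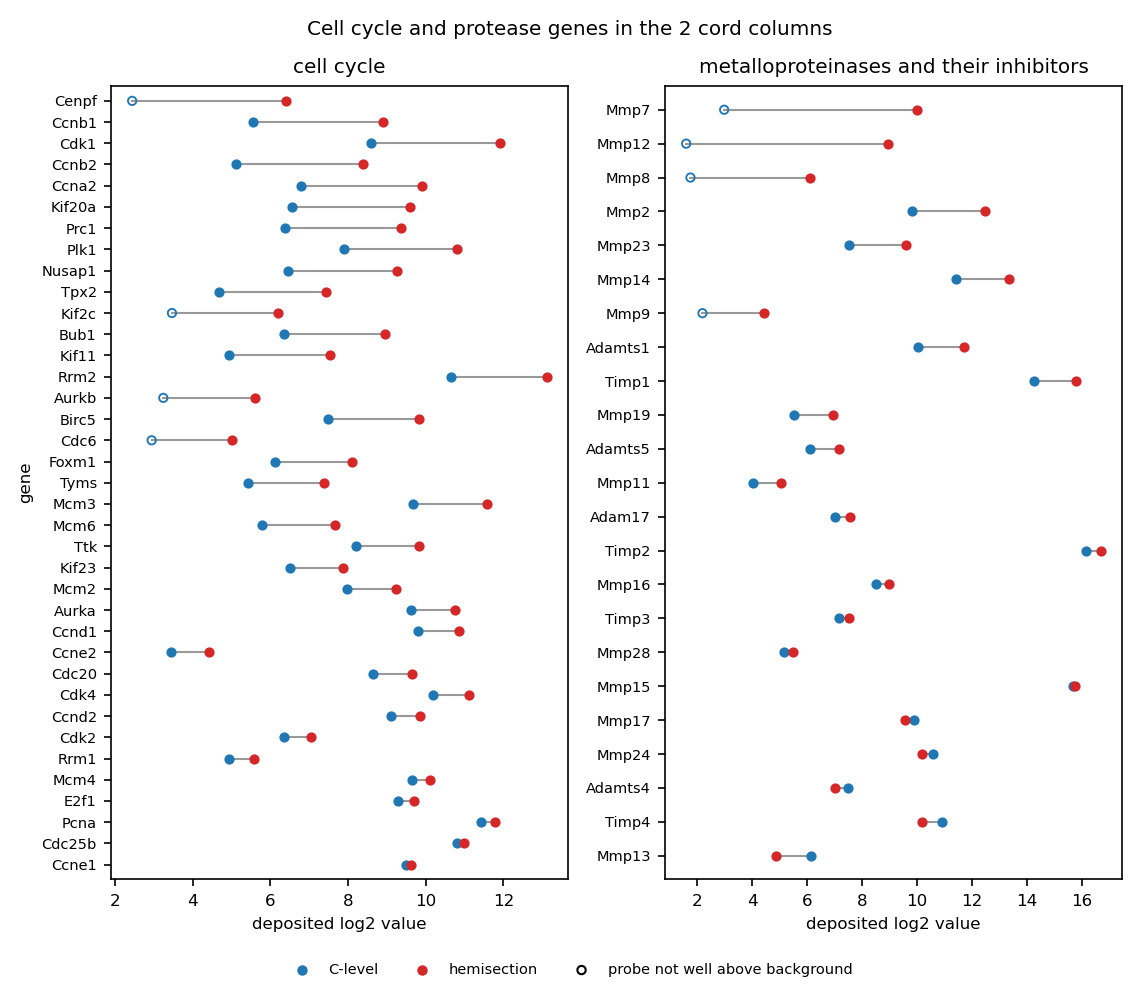
For each gene of the cell cycle list (left) and for the metalloproteinases and their inhibitors in the protease list (right), the deposited log2 values of the C-level column (blue) and the hemisection column (red) are joined; open circles were not well above background. All 37 cell cycle genes have the red point to the right, from Ccne1 (0.12) to Ccnb1 (3.36) among those measured on both arrays, and Mmp7 reaches 10.01 from an open circle.

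Many immediate early and injury-response genes were higher in the hemisection at day 5. Of 26 immediate early genes 11 were higher and 2 lower (median 0.76). Atf3, a transcription factor induced in injured neurons and other stressed cells, stood at 11.62 and 7.91 (3.71 ± 0.10), and Fosl1, an AP-1 partner, at 7.77 and 3.97 (3.80 ± 0.48). Of the other AP-1 genes in the list, Fos (1.49), Junb (1.42), Jun (1.41) and Fosl2 (1.27) were higher and Jund was within 2-fold (0.18), and the activity-dependent neuronal genes Arc (-1.41) and Egr4 (at least 2.64-fold) were lower. Of 24 regeneration-associated genes 11 were higher and 1 lower (median 0.90), with Reg3b and Atf3 far ahead. The tubulins Tubb6 (2.73) and Tubb2b (1.06), the receptor Plaur (2.39), Csrp3 (1.53), annexin Anxa2 (1.42) and Socs3 (1.26) were also among the higher ones. The galanin receptor Galr1 was lower (-1.36), and the growth cone protein Gap43 differed by -0.68, a value picked after it was seen. Of 29 axon guidance genes 2 were higher, the semaphorin receptor Nrp1 (1.99) and netrin Ntn1 (1.08). The 3 lower ones were Omg and the semaphorins Sema3a (-1.16) and Sema3e (-1.13), and the median was -0.37. These shares, 6.9% and 10.3%, were near those of all genes measured (10.2% and 9.24%).

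Of 27 neurotrophic genes 7 were higher and 2 lower (median 0.10). Igf1, made by macrophages and microglia among others, stood at 14.73 and 12.78 (1.95 ± 0.05). The ciliary factor Cntf (1.21), Fgf2 (1.14) and the receptors Ngfr (1.71) and Erbb2 (1.68) were higher, and bounds just past 2-fold were given by Hgf (at least 2.17-fold) and Gdnf (at least 2.05-fold). Igf2 (-1.03) and Vegfa were the lower ones.

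Metabolic and stress genes differed less. All 30 genes of mitochondrial respiration were below 0 (median -0.51), and 2 were at least 2-fold lower, cytochrome c, Cycs, at 13.94 and 15.24 (-1.30 ± 0.05), and Idh3a (-1.09). Of 30 hypoxia and glycolysis genes 2 were higher, the lactate exporter Slc16a3 (1.63) and Hk2 (1.07), and 4 lower (median -0.18). The lower ones included the lactate dehydrogenase Ldhb (-1.18) and Bnip3 (-1.10). The shares, 6.67% and 13.3%, were near those of all genes measured (10.2% and 9.24%). Of 26 antioxidant, metallothionein and heat shock genes, Hmox1, which breaks down haem, stood apart at 13.19 and 9.76 (3.44 ± 0.03); the list's median was 0.00. Besides Hmox1, Gpx1 was higher (1.34) and Hsph1 lower (-1.04). That is 7.69% higher and 3.85% lower, against 10.2% and 9.24% of all genes measured. None of 29 ribosomal protein genes was 2-fold apart, and they ranged from -0.22 for Rpl9 to 0.52 for Rps2.

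Hox genes keep the pattern of body level in the adult cord, with low paralog numbers expressed from the neck down and high ones towards the tail. Of 6 genes of groups 1 to 5, Hoxd1 was lower in the hemisection, at 3.92 and 5.39 (-1.47 ± 0.38), and Hoxc5 (0.15), Hoxa2 (0.02), Hoxb4 (-0.16), Hoxd4 (-0.18) and Hoxc4 (-0.59) were within 2-fold. Of groups 6 to 8, Hoxa7 was lower, at 12.08 and 13.21 (-1.13 ± 0.06), and Hoxb7 (-0.51), Hoxb8 (-0.21) and Hoxa6 (0.04) were within 2-fold. Of groups 9 to 13, Hoxd9 was higher, at 10.79 and 9.39 (1.40 ± 0.07), Hoxd10 was at least 2.59-fold higher, and Hoxd12 differed by -0.60. Past 2-fold were thus 1 gene each of groups 1 and 7, lower, and 1 gene each of groups 9 and 10, higher. Hoxd10 was a bound, and the median of groups 9 to 13 fell from 1.38 to 0.215 with normexp correction. These 13 genes rest on 1 array a side, and whether the pieces came from different cord levels was not tested.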

How the data were processed

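Cord RNA was measured on 2 of 8 one-colour Agilent arrays, 1 for each group, each from a pool of 3 rats. The authors' deposited value table holds log2 values for 24894 probes and 44 controls; all 8 columns have the median 8.03, so they were normalized between arrays, in a manner that no label or header states. The deposited scanner files hold spot intensity from which the scanner program had already taken the background, per the file headers (Feature Extraction 10.7.3.1; the submitters' processing notes name Agilent Feature Extraction 10.5). Nothing in the sources used here records how probes of the table were selected.

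Table columns were used by their headings, and each was matched to the scan it ranks with, which gave the flags, spot errors and background limits. Probe accessions were named through RefSeq's GRCr8 gene table (15213 of 24894 probes, 12765 genes); the array headers name build rn4, so gene coordinates are not given, and promoters were taken by symbol from RefSeq on GRCr8. The 9681 probes without a symbol are not named; 622 of 8820 measured lay at least 2-fold higher and 729 lower. A gene is its probe with the highest mean over 8 columns, measured where well above background in at least 50% of its spots on at least 1 cord array. Bounds set the dim side to the higher of its own value and the lowest value above background (2.51 in the hemisection, 2.75 in the C-level column). The spot error is the pooled standard deviation of replicate spots in 12 signal bins, combined over both arrays (median 0.08). Differences of at least 2-fold were counted; no test was possible with 1 array a side, and the number of arrays limits the precision. Spot errors and scan matching were tested on simulated data. Bounds were run there too, but by their definition they cannot exceed the measured difference, so that check could not fail.

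The samples, the 53 gene lists and the alternatives were chosen with earlier results of these data known. Named genes were the 15 largest differences a side measured on both arrays, list members at least 2-fold apart (otherwise the 6 largest), S100a8, S100a9, Ager, Tlr4, all Hox genes and, to check the labelled tissue, any marker list member. Other genes named within 2-fold were picked after their values were seen. Some members of the lists are counted and not reported here by name. Analyses used Python 3.11.15 (pandas 2.3.3, scipy 1.17.1) and R 4.3.3 with limma 3.58.1.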

Additional observations from a re-analysis of the deposited data

How the results depend on the processing

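With 1 array a side, leaving out a replicate leaves no comparison. No paired analysis was possible because each cord group has 1 sample and the labels give no replicate numbers. Normexp background correction with quantile normalization of the matched scans gave 729 higher genes and 544 lower ones at 2-fold, where the reported counts are 1244 and 1127; of 437 named genes at least 2-fold apart, 303 were still so and none changed sign. The scans as recorded under the cord samples gave 88 higher and 76 lower, and 126 of 279 named genes with a value there had the opposite sign; those scans rank as the columns of unstimulated Schwann cells and of Schwann cells at 24 h. The matched scans scaled to the 75th percentile gave 1217 higher and 843 lower, which moved the higher share of called genes from 52.5% to 59.1%. Keeping outlier spots in those scans gave 1190 and 843. Other filters, another probe rule and centring on the deposited values gave 1064 to 1310 higher and 1014 to 1150 lower. Kcnma1 alone reversed under these other settings, to -0.2 with the mean of its probes. The medians of the mast cell and eosinophil, sensory ganglion, neurotrophic and antioxidant lists, all near 0 or resting on bounds, changed sign in at least 1 alternative. Other list medians moved by over 1.5 times without changing sign, mostly towards 0 with normexp correction. Fat moved to -1.46, skeletal muscle to -0.58, bone and cartilage to -0.31, GABA and glycine to -0.60 and ependymal to -0.30. Potassium channels moved to -0.42, monoamine to -0.16, hypoxia and glycolysis to -0.05, Toll-like receptors to 0.49 and immediate early genes to 0.48. Scar matrix moved to 0.29, red cell genes to 0.11, chemokine receptors to 0.05 and Hox groups 9 to 13 to 0.21. Ribosomal protein genes moved away from 0 with it, to 0.23. Under 75th percentile scaling of those scans the astrocyte median was -0.18 and that of mitochondrial respiration -0.30. Hypoxia and glycolysis stood at -0.05 there and Hox groups 1 to 5 at -0.11. Ribosomal protein genes (0.505), red cell genes (0.35) and chemokine receptors (0.65) lay further from 0 there than as reported. The fibroblast median stood above the macrophage median as reported (1.91 and 1.88) and below it with the matched scans (1.72 and 1.88) with normexp correction (1.75 and 1.88), and, narrowly, with the stricter background filter and with the mean of probes. Genes near background carry bounds or large spot errors, and no setting stands in for more animals.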
